A study of Homo sapiens with 18 samples.

Results

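The 10 genes described here are noncoding RNAs of SJSA-1 osteosarcoma cells, most of them hosts that carry microRNAs or small nucleolar RNAs (snoRNAs) within their transcripts. They are MIR17HG, MIR22HG and DLEU2, which hold microRNAs, GAS5 and SNHG1, which hold snoRNAs in their introns, and the long noncoding RNAs PVT1, NEAT1, MALAT1, TUG1 and MEG3. The members were chosen by gene symbol from 23368 gene rows, with no threshold on any value, but the list was drawn up with the levels of these same libraries already known. Their levels and changes are therefore a description. The adjusted p-values behind the calls say how large a difference was against the spread between replicates, and are not independent evidence about these genes.

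SJSA-1 is a single human osteosarcoma line in which MDM2 and CDK4 are both amplified, so every group shared these amplifications. Cells received the vehicle DMSO, 20 µM Nutlin for 6 h (Nutlin), 10 µM of the CDK4/6 inhibitor PD0332991 for 24 h followed by its removal (PD24), or PD0332991 for 30 h (PD30). N+PD24 and N+PD30 cells followed the same PD0332991 schedules, with the 6 h of Nutlin at their end. Nutlin blocks the binding of MDM2 to p53, and PD0332991 (palbociclib) stops CDK4 and CDK6 from phosphorylating the retinoblastoma protein. Each of the 6 groups had 3 replicate libraries, described by the study as biological triplicates. Total counts ran from 12704845 in N+PD30 replicate 1 to 40231041 in PD24 replicate 3. Levels are given in counts-per-million (CPM), the count of a gene scaled to the total of its library.

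The labels were checked against genes that respond to each drug. CDKN1A, the p53 target that encodes p21, had a mean of 184 CPM in DMSO and 3984 CPM in Nutlin. CCNA2, which encodes the S-phase cyclin A2, had 216 CPM in DMSO, 88.5 CPM in Nutlin, 3.09 CPM in PD24 and 4.51 CPM in PD30. CCNA2 thus moved with the groups, and the part of cell cycle position in the changes below was not tested. Of 7 osteoblast markers, COL1A1 (1122 to 3697 CPM), RUNX2, ALPL and SPP1 (5.70 to 55.5 CPM, called higher in each treated group with PD0332991 against its group without it) were present in every library, whereas SP7, BGLAP and IBSP did not exceed 0.244 CPM. Markers of blood, endothelial and liver cells did not exceed 2.65 CPM. In bulk RNA, fewer cells with a transcript and less of it per cell cannot be told apart.

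A microRNA host gene is transcribed as a long precursor from which hairpins are cut by the enzyme Drosha, and each mature microRNA then finds its targets mainly through its seed, bases 2 to 8. MIR17HG carries the miR-17~92 cluster, which is known as oncogenic and is a textbook target of MYC and E2F factors and of repression by p53. snoRNA hosts such as GAS5 are spliced, their introns release snoRNAs that guide ribosomal RNA modification, and the spliced GAS5 RNA is known to be degraded quickly in growing cells through its coupling to translation.

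The mature sequences below belong to microRNAs that lie within MIR17HG, DLEU2 and MIR22HG, or that share a seed with these and lie within protein-coding hosts. Sequences are from RefSeq (GRCh38.p14), 5′ to 3′, with the seed in capitals. The seed AAAGUGC was shared by miR-17-5p and miR-20a-5p of MIR17HG and by miR-106b-5p and miR-93-5p, which lie in the gene MCM7.
miR-17-5p: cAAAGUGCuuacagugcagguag
miR-20a-5p: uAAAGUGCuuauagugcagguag
miR-106b-5p: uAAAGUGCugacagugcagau
miR-93-5p: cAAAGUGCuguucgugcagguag

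The other arms of the MIR17HG cluster shown here had the seed AAGGUGC (miR-18a-5p), the seed GUGCAAA (miR-19a-3p and miR-19b-3p), and the seed AUUGCAC (miR-92a-3p), the last of which was shared with miR-25-3p of MCM7.
miR-18a-5p: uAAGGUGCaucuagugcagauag
miR-19a-3p: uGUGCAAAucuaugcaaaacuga
miR-19b-3p: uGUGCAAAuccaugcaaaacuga
miR-92a-3p: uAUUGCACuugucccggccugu
miR-25-3p: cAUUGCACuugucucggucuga

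DLEU2 holds miR-15a and miR-16-1, and SMC4 holds miR-15b and a second copy of the miR-16 hairpin. Their 5p arms all carried the seed AGCAGCA. MIR22HG holds miR-22, whose 3p arm had the seed AGCUGCC.
miR-15a-5p: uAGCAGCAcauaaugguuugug
miR-16-5p: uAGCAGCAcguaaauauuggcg
miR-15b-5p: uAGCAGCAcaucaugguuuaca
miR-22-3p: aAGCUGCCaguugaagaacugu

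Promoters, taken as 250 bases before to 50 bases after the start site in RefSeq, were given for 8 of the 10 members (all but NEAT1 and PVT1). They were searched on both strands for the E-box CACGTG, for the E2F letters TTTCCCGC, TTTCGCGC, TTTGCCGC or TTTGGCGC, and for the p53 half-site. Among 35116 promoters of this length, 7.256% held the E-box, 3.315% an E2F match and 6.632% a p53 half-site. MIR17HG and SNHG1, the members lower after both Nutlin and PD30, held 1 match each. In MIR17HG (chr13:91347437-91347736, plus strand) a p53 half-site stood from -43 to -34 relative to the start and is in capitals.
MIR17HG promoter: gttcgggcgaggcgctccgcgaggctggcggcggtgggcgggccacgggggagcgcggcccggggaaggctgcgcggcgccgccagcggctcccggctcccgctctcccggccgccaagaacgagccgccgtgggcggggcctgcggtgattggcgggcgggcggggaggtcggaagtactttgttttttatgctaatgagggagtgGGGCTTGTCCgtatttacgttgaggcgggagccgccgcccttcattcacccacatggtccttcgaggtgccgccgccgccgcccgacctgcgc

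In SNHG1 (chr11:62855836-62856135, minus strand) an E2F match began at -180 and is in capitals. An E-box lay at -230 in DLEU2 and at -77 in TUG1, and no other member's promoter in the table held any of the 3 motifs. A match describes the letters in this window and does not show a binding site.
SNHG1 promoter: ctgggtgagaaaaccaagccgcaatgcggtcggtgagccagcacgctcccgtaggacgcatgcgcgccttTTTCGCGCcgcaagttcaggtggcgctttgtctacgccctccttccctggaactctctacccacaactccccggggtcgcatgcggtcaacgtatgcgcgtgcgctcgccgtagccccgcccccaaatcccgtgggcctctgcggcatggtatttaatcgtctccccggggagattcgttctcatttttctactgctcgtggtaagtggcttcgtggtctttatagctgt

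Across the libraries, MIR17HG had the largest fitted change of any member (its means were 18.4 to 19.2 times below DMSO in the groups with Nutlin), MIR22HG was higher and DLEU2 lower in the groups that received PD0332991, GAS5 was higher in the groups with the inhibitor still present, SNHG1 was lower with either drug, and PVT1 was higher in the groups with Nutlin. A member was called where the adjusted p of the fit over all genes was under 0.05. MEG3 had 0 to 3 counts in any library and was tested in no comparison, so 9 of the 10 members were tested in each.

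Nutlin against DMSO asked what p53 stabilisation alone did, and 15766 genes were tested. Of the members, 1 was called higher (PVT1) and 2 lower (MIR17HG and SNHG1), where 26.6% of all genes were called higher and 28.0% lower. Scaling by library totals moved the median of all genes by -0.13 on the log2 scale and turned the split from 4198 higher and 4416 lower to 3151 higher and 5439 lower, and the 3 members kept their calls and directions. PD30 against DMSO asked what continuous CDK4/6 inhibition did. Here 3 members were called higher (MIR22HG, GAS5, PVT1; background 22.9%) and 3 lower (MIR17HG, DLEU2, SNHG1; background 25.4%) among 15125 genes. In PD24 against DMSO, with the inhibitor removed for the last 6 h, 2 were called higher (NEAT1, MIR22HG; background 17.5%) and 2 lower (DLEU2, SNHG1; background 20.8%). These 3 comparisons share the DMSO libraries.

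On top of Nutlin, in comparisons that share the Nutlin libraries, the continuous schedule (N+PD30 against Nutlin) called 3 members higher (GAS5, MIR22HG, MALAT1; background 24.3%) and 3 lower (DLEU2, SNHG1, NEAT1; background 24.7%). N+PD24 against Nutlin called 2 higher (NEAT1, MIR22HG; background 16.8%) and 2 lower (DLEU2, SNHG1; background 17.1%). The replicate numbers paired the libraries here, and the fit with a replicate block called 8 members (4 higher and 4 lower) and 8362 genes, against 5399 without it. PD30 against PD24 compared the inhibitor kept with the inhibitor removed, and called 1 member higher (GAS5; background 12.2%) and 3 lower (MIR17HG, NEAT1, SNHG1; background 12.9%). Numbers paired here too, and the block called 6 members and 6107 genes, against 3816 without it. For the interaction of Nutlin with PD30, that is, whether the Nutlin change differed between PD30 and DMSO cells, 1 member was called above 0 (MIR17HG; background 12.8%) and 0 below (background 7.03%), with 0 of the members below at an unadjusted edgeR p under 0.05. For the interaction of Nutlin with PD24, 0 members were called in either direction, with a background of 0.466% above and 0.252% below. There, 2 members (GAS5 and SNHG1) had an unadjusted limma p under 0.05. Since these genes were listed with their levels known, nothing is read from the counts against the background.

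MIR17HG, the precursor of the miR-17~92 cluster, was the member that Nutlin lowered most, and its level in PD0332991-treated cells depended on whether the inhibitor was still present. DMSO libraries had 7.06, 5.90 and 8.82 CPM (170 to 273 counts), and Nutlin libraries had 0.459, 0.266 and 0.442 CPM (8 to 14 counts). The Nutlin mean was 5.36% of the DMSO mean, and MIR17HG fell by 4.09 ± 0.26 on the log2 scale (fitted change ± SE, n = 3 per group). With 8 counts in Nutlin replicate 2, MIR17HG needed its DMSO libraries, where it is high, to pass the low-count filter here. Under PD30 the libraries had 1.38, 1.14 and 2.07 CPM, a fall of the mean to 21.1% of DMSO and a fitted log2 change of -2.26 ± 0.24.

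After removal of the inhibitor MIR17HG was near the control level. No group was taken at the time of removal, so its level then is not known. PD24 libraries had 7.20, 4.51 and 6.69 CPM, which overlapped the DMSO libraries, and the fitted log2 difference from DMSO was -0.22 with a 95% interval from -0.63 to 0.19. PD24 exceeded PD30 in every library, by a ratio of means of 4.01. With Nutlin present, the groups with the inhibitor removed and kept overlapped. N+PD24 libraries had 0.287, 0.271 and 0.578 CPM, and N+PD30 libraries had 0.0787, 0.571 and 0.533 CPM. The lowest of these is a single count in the shallowest library, N+PD30 replicate 1, and lies under a floor of 3 counts.

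The 3 groups with Nutlin overlapped in MIR17HG, with means of 0.389 ± 0.107 CPM (Nutlin), 0.378 ± 0.173 CPM (N+PD24) and 0.394 ± 0.274 CPM (N+PD30; SD, n = 3 each). Against Nutlin alone, the log2 difference of N+PD30 was 0.14 with a 95% interval from -0.80 to 1.08, and that of N+PD24 was -0.01 with an interval from -0.78 to 0.76. At 1 to 17 counts per library, changes within these intervals were not detectable. Since PD30 alone was already low, the Nutlin change was smaller in PD30 cells than in DMSO cells. The interaction was 2.45 ± 0.56 (log2, edgeR quasi-likelihood adjusted p = 0.0082), and without N+PD30 replicate 2 it was 2.09 (adjusted p = 0.0639). In PD24 cells the Nutlin change differed from that in DMSO cells by 0.19 (95% interval from -0.64 to 1.02).

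The 6 microRNA rows within MIR17HG (MIR17, MIR18A, MIR19A, MIR20A, MIR19B1 and MIR92A1) were at 0 in all 18 libraries, as was MIR22 within MIR22HG. These libraries were not made for small RNA, so the host level is not a level of mature microRNA.

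**Figure D1:**
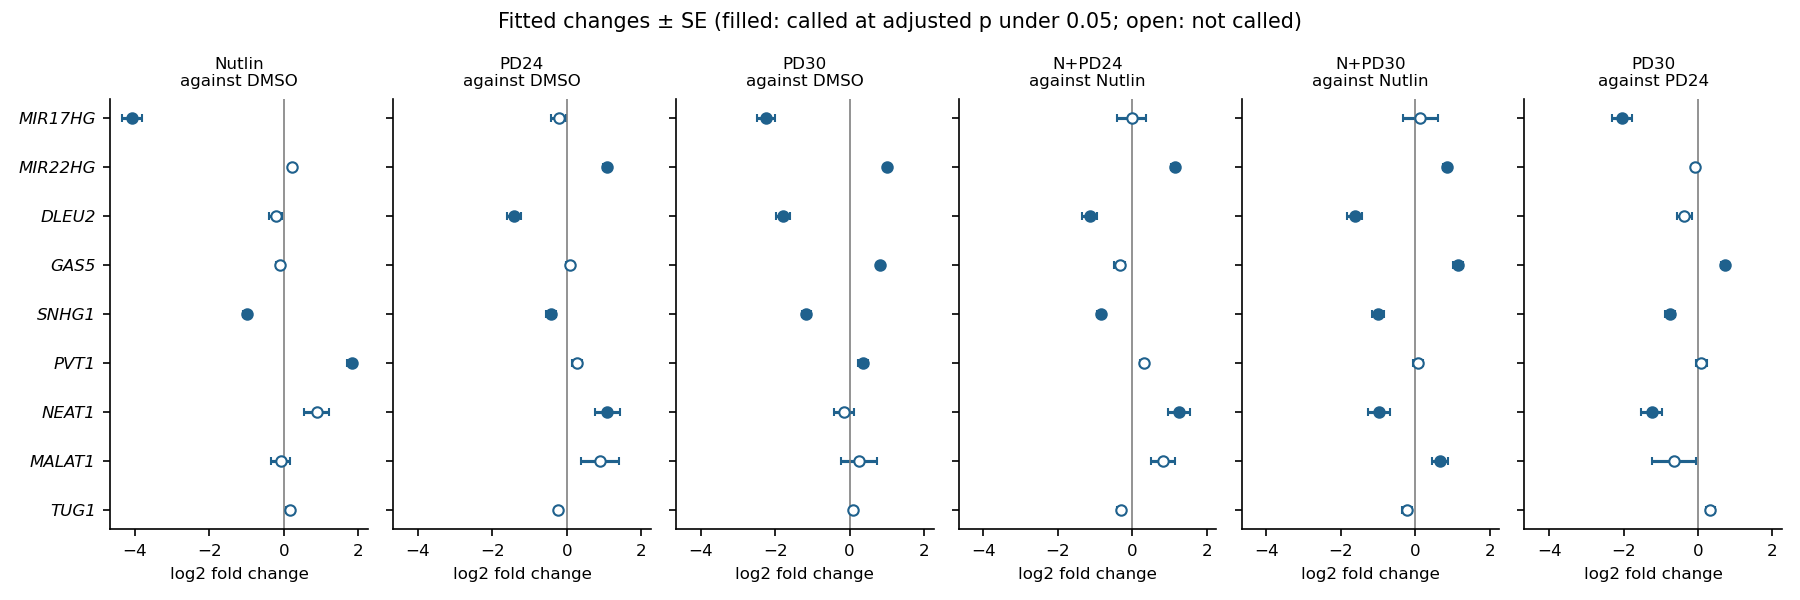
Fitted log2 fold changes of the 9 tested members (rows) in 6 comparisons (panels), with bars for 1 SE. Filled points were called at an adjusted p under 0.05. MIR17HG lay at -4.09 with Nutlin and -2.26 with PD30 but was not called in PD24, MIR22HG was called higher in each of the 4 comparisons that add PD0332991, and SNHG1 was called lower in all 6 panels.

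DLEU2, the host of miR-15a and miR-16-1 at the locus often deleted in chronic lymphocytic leukaemia, was lowered by PD0332991 on either schedule. DMSO libraries had 6.12, 6.42 and 8.44 CPM and Nutlin libraries 6.10, 5.33 and 4.97 CPM, and the Nutlin change was not called (-0.23, 95% interval from -0.57 to 0.12). PD24 libraries had 2.89, 2.19 and 2.63 CPM, and PD30 libraries had 2.14, 1.78 and 2.24 CPM. DLEU2 fell by 1.42 ± 0.19 in PD24 and by 1.78 ± 0.18 in PD30 on the log2 scale, with no overlap with DMSO. Unlike MIR17HG, whose PD24 libraries overlapped DMSO, DLEU2 was below DMSO 6 h after removal. The log2 difference of PD30 from PD24 was -0.36 with a 95% interval from -0.75 to 0.02. Relative to Nutlin, DLEU2 fell by 1.15 ± 0.20 in N+PD24 and by 1.63 ± 0.21 in N+PD30, to means of 2.33 ± 0.36 and 1.82 ± 0.23 CPM. Rows for MIR15A and MIR16-1 held at most 2 counts in a library.

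The protein-coding hosts of the same seeds followed the inhibitor more steeply. MCM7, a subunit of the replicative helicase and host of miR-106b, miR-93 and miR-25, had 348 ± 8.35 CPM in DMSO, 239 ± 23.9 in Nutlin, 36.7 ± 7.64 in PD24, 23.2 ± 1.64 in PD30, 16.0 ± 1.10 in N+PD24 and 18.3 ± 0.944 in N+PD30 (SD, n = 3). SMC4, a condensin subunit and host of miR-15b and miR-16-2, had 508 ± 65.0 CPM in DMSO, 307 ± 47.4 in Nutlin, 48.5 ± 5.40 in PD24 and 47.7 ± 6.83 in PD30. MCM7 fell by 0.42 ± 0.09 with Nutlin and by 3.92 ± 0.09 with PD30 on the log2 scale. For MIR17HG the order was the reverse, with the larger drop under Nutlin. In PD24, MCM7 was at 10.5% of its DMSO mean and SMC4 at 9.55%, where MIR17HG was at 84.5% and DLEU2 at 36.8%.

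MIR22HG, the host of miR-22, was raised about 2-fold by PD0332991 whether or not it was removed and whether or not Nutlin was present. DMSO libraries had 71.0, 63.5 and 73.9 CPM, and Nutlin libraries had 75.9, 71.0 and 75.3 CPM, which overlapped. PD24 libraries had 156, 130 and 145 CPM, and PD30 libraries had 143, 129 and 150 CPM, all above every DMSO library. MIR22HG rose by 1.07 ± 0.10 in PD24, by 1.00 ± 0.09 in PD30, by 1.14 ± 0.11 in N+PD24 against Nutlin and by 0.86 ± 0.12 in N+PD30 against Nutlin (log2 ± SE). The 4 groups with the inhibitor overlapped each other, with means from 138 to 156 CPM, and PD30 differed from PD24 by -0.07 (95% interval from -0.27 to 0.13). The change with Nutlin alone was 0.22 and was not called (95% interval from 0.04 to 0.40). The PD0332991 change did not differ detectably between cells with and without Nutlin, the interaction being -0.10 (95% interval from -0.36 to 0.16) for PD30 and 0.05 (from -0.24 to 0.34) for PD24. WDR81, which overlaps MIR22HG on the opposite strand, rose by 0.94 ± 0.19 in PD24 and 0.93 ± 0.12 in PD30 but also by 0.93 ± 0.20 with Nutlin, where MIR22HG was not called. Reads were counted on the reverse strand, but whether the library kit kept the strand is not stated, and without it reads of overlapping genes cannot be told apart.

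The snoRNA hosts GAS5 and SNHG1 moved in opposite directions under continuous PD0332991. GAS5 (growth arrest specific 5) had 68.9, 73.9 and 75.9 CPM in DMSO and 138, 119 and 135 CPM in PD30, and it rose by 0.83 ± 0.08 on the log2 scale. With Nutlin the libraries had 70.4, 57.4 and 59.1 CPM, and with N+PD30 they had 152, 142 and 129 CPM, a rise of 1.14 ± 0.14. GAS5 was thus high in both groups with the inhibitor still present and in no other group.

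GAS5 was not raised where the inhibitor had been removed. PD24 libraries had 84.3, 69.0 and 76.3 CPM and overlapped DMSO (log2 difference 0.09, 95% interval from -0.10 to 0.29), and PD30 exceeded PD24 by 0.73 ± 0.11. The N+PD24 libraries had 54.9, 44.9 and 40.9 CPM, the lowest of the 6 groups, and N+PD30 exceeded them by a ratio of means of 3.01 with no overlap. The log2 change of N+PD24 from Nutlin was -0.34 ± 0.15 and was not called, but the replicate numbers paired these libraries, and the fit with a replicate block called it (limma adjusted p = 0.00306). The Nutlin change of GAS5 in DMSO cells was -0.10 (95% interval from -0.31 to 0.11).

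SNHG1 was lowered by each drug, and lowest where both had been given. DMSO libraries had 75.2, 74.2 and 95.4 CPM, Nutlin libraries 38.8, 34.8 and 39.4 CPM, and PD30 libraries 34.1, 33.9 and 42.5 CPM. The log2 change was -0.99 ± 0.12 with Nutlin and -1.16 ± 0.13 with PD30. N+PD24 libraries had 20.0, 19.3 and 20.1 CPM and N+PD30 libraries had 17.6, 15.6 and 24.6 CPM, which was 24.3% and 23.6% of the DMSO mean. Relative to Nutlin, SNHG1 fell by 0.85 ± 0.11 in N+PD24 and by 1.01 ± 0.16 in N+PD30. The interaction of Nutlin with PD30 was 0.19 (95% interval from -0.23 to 0.62), so a departure from additive log2 changes was not detected.

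After removal of the inhibitor SNHG1 stood between PD30 and DMSO. PD24 libraries had 66.4, 50.5 and 63.8 CPM, all below DMSO and all above PD30. The change from DMSO was -0.42 ± 0.13 and was called, but it lost its call without DMSO replicate 2, DMSO replicate 3 or PD24 replicate 2, with edgeR adjusted p up to 0.128 and a smallest change of -0.30.

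The rows of the snoRNAs inside these hosts give a second readout from the same libraries. They too were listed with earlier results of these data known, so they are not independent evidence. GAS5 holds 10 snoRNA rows in the tables (SNORD44, SNORD47, SNORD74 to SNORD81) and SNHG1 holds 8 (SNORD22 and SNORD25 to SNORD31). Each row held at most 190 counts in a library. The libraries were not made for small RNA, and whether these reads came from mature snoRNAs or from introns of the host precursor was not tested. Summed over the 10 rows, GAS5 snoRNAs had 11.0 ± 2.70 CPM in DMSO, 16.0 ± 2.37 in PD24 and 9.08 ± 1.51 in PD30 (SD, n = 3). Nutlin had 5.69 ± 0.807, N+PD24 had 3.25 ± 0.742 and N+PD30 had 4.29 ± 0.762 CPM.

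The GAS5 host and its snoRNA rows therefore did not move together. In PD30 the host was at 179% of DMSO and the snoRNA sum at 82.6%, with overlapping DMSO and PD30 libraries for the sum. In N+PD30 the host was at 193% of DMSO and the snoRNA sum at 39.1%. As a share of the host count, the snoRNA rows were 15.1% ± 3.42 in DMSO, 21.0% ± 2.47 in PD24, 9.16% ± 1.16 in Nutlin, 6.93% ± 0.825 in PD30, 6.88% ± 0.524 in N+PD24 and 3.05% ± 0.537 in N+PD30. The lowest DMSO library had 11.4% and the highest PD30 library 7.88%, so these groups did not overlap in the share. The share is divided by the host count, which was known when the members were listed. Its separation between groups is therefore not independent of the rise of the host. With 3 libraries against 3, an exact permutation test cannot give a two-sided p below 0.1. In the fit over all genes, 4 of the 7 tested GAS5 snoRNA rows were called lower with Nutlin (28.0% of all genes), where the host was not called, and 1 of 8 (SNORD80, -0.62 ± 0.19) was called lower in PD30 (25.4% of all genes), where the host rose. In PD24, where 17.5% of all genes were called higher, 2 of 8 were (SNORD79, 0.80 ± 0.19, and SNORD81, 1.09 ± 0.32). Only 4 GAS5 snoRNA rows passed the low-count filter in N+PD30 against Nutlin, where no DMSO library entered. Rows that passed with Nutlin only through DMSO libraries, where the sum was higher, favour a call of lower.

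For SNHG1, host and most snoRNA rows were called lower with Nutlin and with PD30, while in PD24 the host was called lower, at 73.8% of DMSO, and the snoRNA sum was at 94.5%. The sum over its 8 rows was 10.8 ± 3.87 CPM in DMSO, 3.54 ± 1.23 in Nutlin, 10.2 ± 1.47 in PD24, 5.22 ± 1.63 in PD30, 1.72 ± 0.599 in N+PD24 and 1.87 ± 1.23 in N+PD30. As a share of the host count it was 13.0% ± 2.63 in DMSO, 17.02% ± 1.55 in PD24, 14.0% ± 2.66 in PD30, 9.30% ± 2.74 in Nutlin, 8.65% ± 2.88 in N+PD24 and 9.13% ± 3.74 in N+PD30. With Nutlin 7 of 8 SNHG1 snoRNA rows were called lower and 0 higher, with PD30 5 of 8 were called lower (28.0% and 25.4% of all genes), and in PD24 0 of 8 were called at a median log2 change of -0.05. Of the 8 rows, 0 had an unadjusted p under 0.05 in PD24. Of these rows, 4 passed the low-count filter in N+PD30 against Nutlin and 3 in N+PD24 against Nutlin, where no DMSO library entered. Rows that passed with Nutlin only through DMSO libraries, where the sum was higher, favour a call of lower. The counts of lower calls are therefore a description only.

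**Figure D2:**
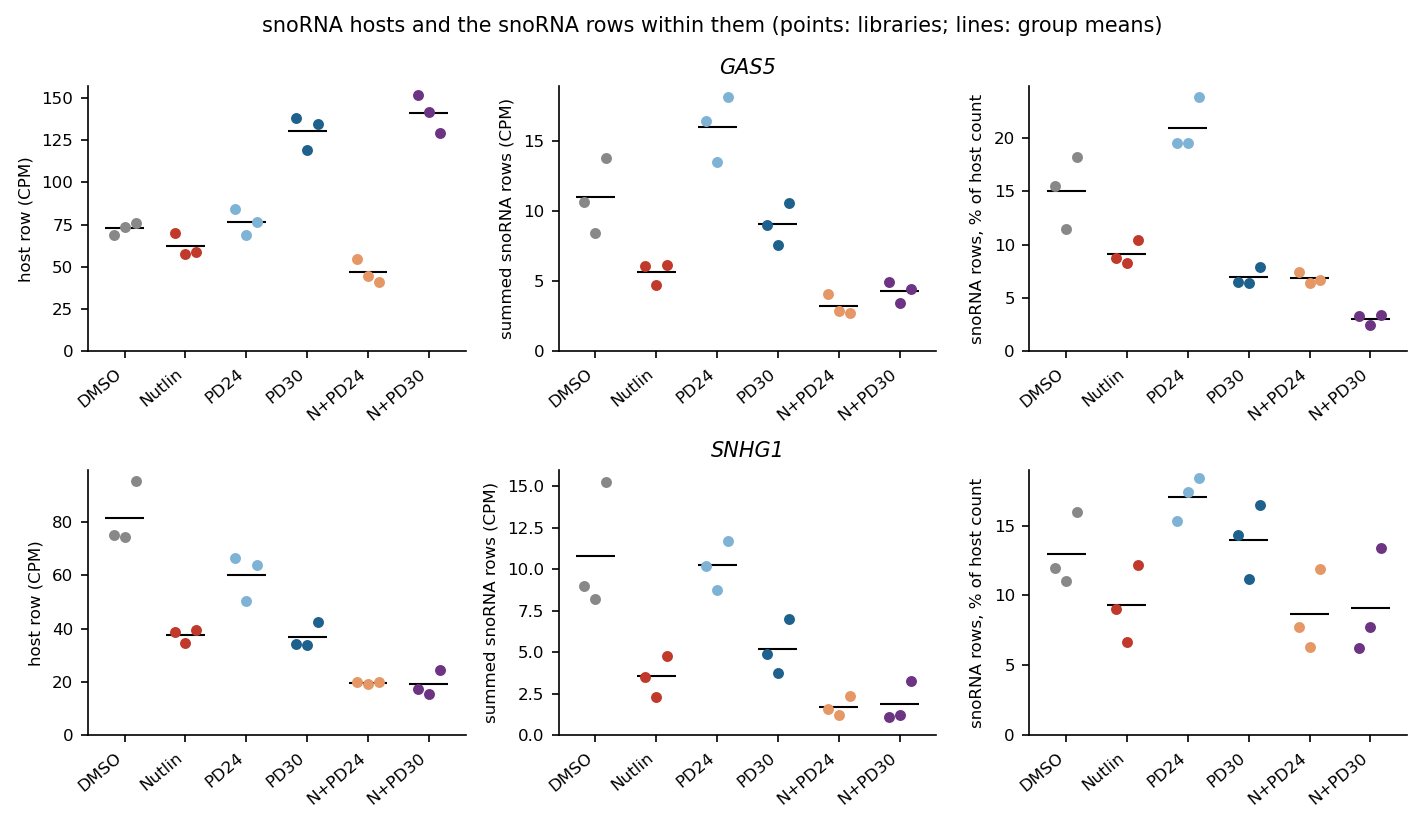
Host level (left), summed level of the snoRNA rows within the host (middle), both in CPM, and the summed snoRNA count in percent of the host count (right), for GAS5 (top) and SNHG1 (bottom) in the 6 groups. Points are libraries and lines are group means, on linear axes from 0. For GAS5 the mean share was 15.1% in DMSO, 6.93% in PD30 and 3.05% in N+PD30, and for SNHG1 it was 13.0% in DMSO and 14.0% in PD30.

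Of 13 other snoRNA hosts, 8 were called higher and 2 lower with Nutlin (26.6% and 28.0% of all genes), with SNHG3 (1.53 ± 0.12), SNHG4 (1.09 ± 0.18) and SNHG10 (1.01 ± 0.15) the most raised and SNHG15 (-0.92 ± 0.15) and SNHG12 (-0.90 ± 0.24) lowered. The median log2 change of the 13 was 0.45, beside 0.03 over all genes. SNHG1 was at -0.99. In PD30, 4 were called higher and 2 lower (22.9% and 25.4% of all genes), led by EPB41L4A-AS1 (0.76 ± 0.13). In PD24, 6 were called higher and 0 lower (17.5% and 20.8% of all genes), led by SNHG9 (1.05 ± 0.25). In N+PD30 against Nutlin, 6 were called higher and 3 lower (24.3% and 24.7% of all genes), the latter being SNHG3 (-2.26 ± 0.16), SNHG4 (-1.57 ± 0.18) and SNHG10 (-1.39 ± 0.18), the hosts that Nutlin had raised most. In N+PD24 against Nutlin, 1 was called higher and 3 lower (16.8% and 17.1% of all genes). In PD30 against PD24, where GAS5 rose, 0 were called higher and 5 lower (12.2% and 12.9% of all genes).

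PVT1, a long noncoding RNA next to MYC that is known to contain p53 binding sites, was raised by Nutlin in every background. DMSO libraries had 8.36, 8.29 and 9.89 CPM and Nutlin libraries 28.7, 26.5 and 30.8 CPM, a log2 change of 1.82 ± 0.12. PD24 libraries (10.3, 9.23 and 12.1 CPM) overlapped DMSO, and PD30 libraries (11.5, 10.4 and 12.7 CPM) did not. The PD30 change was 0.37 ± 0.13 and was called at adjusted p = 0.0424, but lost its call without DMSO replicate 1, DMSO replicate 2, PD30 replicate 1 or PD30 replicate 3, with edgeR adjusted p up to 0.149. N+PD24 had 33.8 ± 3.58 CPM and N+PD30 had 30.9 ± 5.51 CPM. The log2 difference from Nutlin was 0.31 ± 0.11 for N+PD24, called only with the replicate block (limma adjusted p = 0.00968), and 0.07 (95% interval from -0.20 to 0.34) for N+PD30. The Nutlin change of PVT1 did not differ detectably with PD30, the interaction being -0.26 with a 95% interval from -0.61 to 0.09.

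MYC, the oncogenic transcription factor encoded beside PVT1, changed the opposite way under Nutlin. It fell by 1.85 ± 0.21 on the log2 scale with Nutlin, while PVT1 rose by 1.82. MYC rose by 1.20 ± 0.13 in PD24, where PVT1 was not called, by 0.40 ± 0.14 in PD30 and by 1.32 ± 0.24 in N+PD24 against Nutlin. In PD30 against PD24 MYC fell by 0.80 ± 0.14. MIR17HG, a known MYC target, fell together with MYC under Nutlin, whereas under PD30 MYC was called higher and MIR17HG lower. In PD30 against PD24 both fell, MIR17HG by 2.04. In N+PD24 against Nutlin, where MYC rose, MIR17HG was at -0.01. The part of MYC in these changes was not tested.

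NEAT1 and MALAT1, nuclear RNAs encoded side by side on chromosome 11 and known for paraspeckles and nuclear speckles, were the members with the widest spread between replicates. The SD of log2 CPM within groups was 0.52 for NEAT1 and 0.77 for MALAT1 (12 residual degrees of freedom), beside a median of 0.16 over 9493 genes with at least 10 CPM, at percentiles 98.8 and 99.9 of those genes. NEAT1 had 128, 103 and 228 CPM in DMSO, 231, 147 and 401 CPM in Nutlin, 258, 227 and 481 CPM in PD24 and 471, 481 and 699 CPM in N+PD24. It had 183, 104 and 131 CPM in PD30 and 155, 99.0 and 150 CPM in N+PD30. Replicate 3 was the highest library in DMSO, Nutlin, PD24 and N+PD24.

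NEAT1 was highest after removal of the inhibitor. It rose by 1.25 ± 0.29 in N+PD24 against Nutlin, without overlap, and fell by 1.24 ± 0.28 in PD30 against PD24. PD24 against DMSO gave 1.09 ± 0.33 and was called although the groups overlapped by 1 library (227 against 228 CPM). It lost the call with DESeq2 (adjusted p = 0.0552) and without DMSO replicate 1, DMSO replicate 2 or PD24 replicate 3 (edgeR adjusted p 0.0748 to 0.0889, log2 change 0.71 without PD24 replicate 3). N+PD30 against Nutlin gave -0.97 ± 0.29 and lost its call without Nutlin replicate 3 (-0.55, adjusted p = 0.0855) or N+PD30 replicate 2 (-0.79, adjusted p = 0.0707). The replicate block kept the calls of PD24 and N+PD30 (edgeR adjusted p = 7.19e-06 and 0.00406). By the cutoff used, replicate numbers did not pair those libraries, although PD24 against DMSO missed it narrowly (lowest correlation 0.0923, cutoff 0.1). Nutlin against DMSO gave 0.88 ± 0.34 and was not called (adjusted p = 0.0513), but it was called without DMSO replicate 3 (adjusted p = 0.00831) or Nutlin replicate 2 (adjusted p = 0.0164). It was also called with the replicate block (edgeR adjusted p = 0.000208), although replicate numbers did not pair these libraries. The PD30 change of NEAT1 was -0.15 with a 95% interval from -0.70 to 0.40. MIR612, a microRNA row within NEAT1 with 1 to 55 counts, was called higher with Nutlin (2.12 ± 0.78) and in PD24 (2.79 ± 0.65). The libraries were not made for small RNA, and whether these reads came from the microRNA or from NEAT1 itself was not tested.

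MALAT1 levels turned on single libraries. They were 233, 279 and 538 CPM in DMSO, 317, 246 and 341 in Nutlin, 1245, 341 and 328 in PD24, 799, 221 and 237 in PD30, 396, 946 and 345 in N+PD24 and 650, 343 and 483 in N+PD30. The high library was replicate 1 in PD24, PD30 and N+PD30, replicate 2 in N+PD24 and replicate 3 in DMSO and Nutlin. MALAT1 was called in N+PD30 against Nutlin (0.68 ± 0.22), and lost this call without Nutlin replicate 2 (0.56, adjusted p = 0.0942) or N+PD30 replicate 1 (0.40, adjusted p = 0.0644). The PD24 change of 0.89 ± 0.51 was not called and was -0.04 without PD24 replicate 1. The PD30 change of 0.25 ± 0.48 was -0.62 without PD30 replicate 1. With the replicate block, MALAT1 was called higher in N+PD24 against Nutlin (0.83, limma adjusted p = 0.00239) and lower in PD30 against PD24 (-0.61, edgeR adjusted p = 0.000358), the latter turning to 0.28 without PD24 replicate 1 in the fit with no block.

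TUG1 is a widely expressed noncoding RNA that the annotation lists as protein-coding. Its 18 libraries lay between 196 and 343 CPM, and group means ran from 220 ± 27.1 CPM in N+PD24 to 304 ± 39.2 CPM in PD30. It was called in none of the 6 comparisons between groups, with log2 changes from -0.31 to 0.33, although the unadjusted p was under 0.05 in 2 of them (N+PD24 against Nutlin by limma and PD30 against PD24 by edgeR). With the replicate block it was called lower in N+PD24 against Nutlin (-0.31, limma adjusted p = 0.00392) and higher in PD30 against PD24 (0.33, edgeR adjusted p = 0.00528). MEG3, an imprinted RNA that is often silent in tumours, had 0 counts in DMSO, Nutlin and PD30, and up to 3 counts in single PD24, N+PD24 and N+PD30 libraries. A count of 0 allows up to 3 counts, or 0.236 CPM in the shallowest library, counting error only.

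The genes beside the members changed in part with them and in part against them. Of 14 neighbours, 13 were tested, with 5 called higher and 7 lower with Nutlin (26.6% and 28.0% of all genes), 6 higher and 1 lower in PD30 (22.9% and 25.4%), and 6 higher and 1 lower in PD24 (17.5% and 20.8%). At DLEU2, the opposite-strand neighbours TRIM13 and DLEU1 fell with Nutlin by 1.43 ± 0.14 and 0.64 ± 0.15, where DLEU2 was not called. In PD30, DLEU1 fell by 0.82 ± 0.14 and TRIM13 was at -0.03 ± 0.15. Beside MIR22HG, TLCD2 rose by 1.43 ± 0.12 in PD30, and ZBTB37, which overlaps GAS5 on the opposite strand, rose by 0.95 ± 0.16 with Nutlin. At SNHG1, WDR74 fell by 0.47 ± 0.13 and SLC3A2 rose by 0.29 ± 0.11 with Nutlin. FRMD8 near NEAT1 rose by 0.61 ± 0.13 in PD24. Beside TUG1, MORC2 fell by 0.65 ± 0.10 and MORC2-AS1 by 0.89 ± 0.19 with Nutlin. In N+PD30 against Nutlin 7 neighbours were called higher and 1 lower (24.3% and 24.7% of all genes), in N+PD24 against Nutlin 3 higher and 2 lower (16.8% and 17.1%), and in PD30 against PD24 2 higher and 4 lower (12.2% and 12.9%).

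Other noncoding microRNA hosts are given beside MIR17HG and MIR22HG. Of 17 with a row, 13 were tested with Nutlin, and 4 were called higher and 3 lower, where 26.6% and 28.0% of all genes were. Their lowest change was -0.88 ± 0.17 (DNM3OS, host of miR-199a and miR-214), against -4.09 for MIR17HG. H19 (1.51 ± 0.45), LINC00478 (1.45 ± 0.27) and MIR181A2HG (1.28 ± 0.29) rose most. H19 had 3 to 9 counts in DMSO and 10 to 22 in Nutlin, and passed the low-count filter only through its Nutlin libraries. In PD30, 6 of 12 were called higher and 1 lower (22.9% and 25.4% of all genes), with MIR137HG (1.68 ± 0.27), MIR181A2HG (1.41 ± 0.24) and MIR143HG (1.32 ± 0.13) rising beside MIR22HG, and MIR155HG falling (-1.34 ± 0.27). In PD24, 5 of 12 were called higher and 0 lower (17.5% and 20.8% of all genes), led by MIR137HG (1.66 ± 0.29), MIRLET7BHG (1.11 ± 0.16) and MIR143HG (1.03 ± 0.14). MIR155HG fell by 1.75 ± 0.18 in PD30 against PD24, beside -2.04 ± 0.26 for MIR17HG. With Nutlin present, 3 of 13 were called higher and 2 lower in N+PD30 (24.3% and 24.7% of all genes), and 6 of 13 were called higher and 0 lower in N+PD24 (16.8% and 17.1%).

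Noncoding RNAs outside the hosts also responded. LOC643401 (PURPL), a noncoding RNA known to be induced by p53, rose by 5.28 ± 0.27 with Nutlin and fell by 3.16 ± 0.25 in N+PD30 against Nutlin. It had 3 to 7 counts in DMSO and 145 to 175 in Nutlin. Against DMSO it passed the low-count filter only through its Nutlin libraries. TP53TG1 rose by 1.83 ± 0.17 with Nutlin. Of 15 other well-known long noncoding RNAs, 12 were tested with Nutlin, and 7 were called higher and 1 lower (26.6% and 28.0% of all genes). UCA1 (1.81 ± 0.39) and HOTTIP (1.43 ± 0.42) were most raised. UCA1 had 6 to 17 counts in DMSO and 24 to 34 in Nutlin, and HOTTIP had 2 to 8 and 12 to 15. Both passed the low-count filter only with their Nutlin libraries. CRNDE, like DLEU2, fell in PD24 (-1.60 ± 0.20) and in PD30 (-1.13 ± 0.17).

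Levels could be compared between members only per length, and the choice of gene model mattered. Divided by the canonical transcript length in kb, the DMSO mean was 94.9 CPM per kb for GAS5, 70.2 for SNHG1, 37.3 for TUG1, 33.5 for MALAT1, 24.1 for MIR22HG, 9.72 for MIR17HG, 6.72 for NEAT1, 3.62 for PVT1 and 2.28 for DLEU2. Divided by all annotated exons, MIR17HG had 0.563 and GAS5 14.8 CPM per kb. GAS5, SNHG1, TUG1, MALAT1 and MIR22HG stood above the others by both lengths. In GRCh37 with GENCODE, MIR17HG spans 91999940 to 92049846 of chromosome 13 (plus strand), MIR22HG 1614741 to 1620468 of chromosome 17 (minus), DLEU2 50530806 to 50699856 of chromosome 13 (minus), GAS5 173827697 to 173838020 of chromosome 1 (minus), and SNHG1 62619450 to 62623425 of chromosome 11 (minus). Counts cover their exons.

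The genes whose pattern was most like that of MIR17HG over the 18 libraries were ZNF124 (Pearson r 0.977), DLX1 (0.976), ZNF100 (0.974), TTLL4 (0.973) and ZNF670 (0.970), among 13559 genes on log2 CPM. Of the other members, SNHG1 came closest (r 0.892, rank 340) and PVT1 was the most opposite (r -0.874). For MIR22HG they were KRT34 (0.962), RTN4 (0.962), NUDT9 (0.958), ATP6V1G1 (0.956) and RNF7 (0.955), and DLEU2 was opposite (r -0.886). The 18 points share 6 treatments and library depth, so these values describe likeness across groups and carry no test.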

How the data were processed

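Total RNA of SJSA-1 cells was sequenced as single reads, which the authors mapped to hg19 with TopHat and Bowtie2 and counted per gene with HTSeq 0.6.0. The authors deposited whole-number counts for DMSO, Nutlin, PD24, PD30 and N+PD30, and for N+PD24 a signal, counts divided by a size factor per library. All N+PD24 values (100%) were whole multiples of 1 read within 0.01 read, from which counts and CPM were recovered. The deposited columns of group means, fold changes and p-values were not used.

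Counts were tested with the quasi-likelihood test of edgeR 4.0.16 (R 4.3.3, TMM scaling, low-count filter) between the groups compared, and comparisons with N+PD24 with limma 3.58.1 on log2(signal + 1), with Benjamini-Hochberg adjustment over all genes tested. Fold changes from limma understate those of low genes. Intervals are the estimate ± 1.96 SE, a normal approximation that is narrower than the tests with few replicates allow. For TUG1 in PD24 the interval ran from -0.427 to -0.016 at an unadjusted edgeR p of 0.0637. The SE of edgeR fits was the absolute log2 fold change divided by the square root of the F statistic. Alternatives were no filter, other scalings, DESeq2 1.42.0, recovered reads, a pseudocount of 10, a fold threshold, a replicate block and leaving out each library. The fits were tested on simulated data. The members and gene lists were chosen with earlier results of these data known. Every member is named, and of each list the called genes with the largest changes, the neighbours that were called in some comparison (1 is not reported here), and the 5 genes most correlated with MIR17HG and MIR22HG. No replicates were duplicates (lowest chi-square per degree of freedom 12.9). Replicate numbers were taken to pair libraries where all same-numbered libraries deviated together from their group means with a correlation r over 0.1. This held in N+PD24 against Nutlin (r 0.45 to 0.672) and in PD30 against PD24 (r 0.304 to 0.586), and in no other comparison. PD24 against DMSO missed the cutoff narrowly (r 0.0923 to 0.611).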

Additional observations from a re-analysis of the deposited data

Results flagged for a closer look

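The Nutlin change of MIR17HG differed between PD30 and DMSO cells, with an interaction of 2.45 on the log2 scale by edgeR's quasi-likelihood test (adjusted p = 0.0082, 16113 genes tested). All 3 PD30 libraries (1.14 to 2.07 CPM) lay below the DMSO libraries (5.90 to 8.82 CPM), and the Nutlin and N+PD30 libraries held 1 to 17 counts. Without N+PD30 replicate 2 the value was 2.09 (adjusted p = 0.0639).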

How the results depend on the processing

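Requiring an absolute log2 fold change over 1 beside the adjusted p reduced the calls over all genes from 8614 to 3277 (Nutlin against DMSO), 7307 to 2305 (PD30), 5781 to 1898 (PD24), 7711 to 3510 (N+PD30 against Nutlin), 5399 to 1945 (N+PD24 against Nutlin), 3816 to 1137 (PD30 against PD24) and 3193 to 1647 (interaction with PD30), and the called members from 6 to 3 in N+PD30 against Nutlin and from 4 to 2 in PD30 against PD24. The replicate block called 8 members and 8362 genes in N+PD24 against Nutlin, 6107 genes in PD30 against PD24 and 287 in the interaction with PD24 (117 without it). That interaction gave 74 genes with no filter and 205 with a pseudocount of 10. Where the numbers did not pair, the block called NEAT1 with Nutlin (adjusted p = 0.000208) and changed no other call of a member.

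Leaving out 1 library gave 2178 to 4117 genes in PD30 against PD24 (fewest without PD30 replicate 1 or 3), 34 to 97 in the interaction with PD24, 2 to 4 members in PD24 against DMSO (2 without DMSO replicate 2) and 0 to 2 in the interaction with PD30 (0 without N+PD30 replicate 2, 2 without Nutlin replicate 1). The sign of changes that were not called turned for MIR17HG in N+PD24 against Nutlin (0.014 with edgeR on recovered reads, 0.00026 with a pseudocount of 10) and for PVT1 in the interaction with PD24 (-0.012 with library totals). With 1 library left out, log2 values ran from -0.32 to 0.35 for MALAT1 with Nutlin, from -0.62 to 0.69 in PD30, from -0.036 to 1.33 in PD24 and from -1.50 to 0.28 in PD30 against PD24. NEAT1 in PD30 ran from -0.39 to 0.25, MIR17HG from -0.21 to 0.46 in N+PD30 and from -0.31 to 0.15 in N+PD24 against Nutlin, and PVT1 in N+PD30 against Nutlin from -0.052 to 0.15. In the interaction with PD24 they ran from -0.21 to 0.48 for NEAT1, -0.32 to 0.75 for MALAT1, -0.12 to 0.38 for MIR17HG, -0.037 to 0.11 for MIR22HG and -0.073 to 0.11 for PVT1. The causes were not tested. Every called member kept its direction under every alternative run, and kept its call with library totals and, in the comparisons tested with edgeR, with RLE size factors. Depth limits MEG3 (0 to 3 counts), MIR17HG in the groups with Nutlin (1 to 17 counts).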
